A study of Homo sapiens with 7 samples.

Results

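NKX6.1 occupancy on day 13 of pancreatic differentiation was compared with HNF6 occupancy on day 10. Both were profiled by chromatin immunoprecipitation and sequencing (ChIP-seq), which reads the DNA bound by an antibody against a chosen protein. The NKX6.1 list held 14627 regions and the HNF6 list 64919, of 86081 regions in the 4 peak lists of the study. Each NKX6.1 region was placed in 1 of 3 groups. It was called overlapping where it shared 1 bp or more with an HNF6 region. It was called near where it shared none but its midpoint lay within 5 kb of an HNF6 midpoint, and far otherwise. Scores, NKX6.1 neighbours, GATA6 and genes were not used to form the groups, whereas width enters through the overlap.

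The cells were CyT49, an established human embryonic stem cell line, differentiated in vitro without genetic change or added compound named as a group in the labels. Day 10 is labelled the PE stage and day 13 the PP stage, and NKX6.1-positive cultures of day 10 are described as pancreatic progenitors. Each list came from 1 library (n = 1), so factor, antibody, day and library cannot be told apart. Replicate spread is unknown for every difference below, and p-values were not computed. The extraction protocol of both samples names an antibody against NKX6.1, whereas the antibody characteristic of the day 10 sample is HNF6, and the latter was followed. Peak lists hold no expression values, so the stages could not be checked against marker genes.

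NKX6.1 is a homeodomain transcription factor that marks multipotent pancreatic progenitors and is kept in insulin-producing beta cells. HNF6, encoded by ONECUT1, carries a cut domain and a homeodomain and acts earlier, in the foregut endoderm that gives rise to pancreas and liver. Such factors bind short DNA motifs, mostly at enhancers away from gene starts, and several factors often occupy 1 enhancer together. GATA6, a zinc finger factor of the same lineage, was profiled on day 10 and is used below as a further readout.

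At the 5 kb distance, far regions were the most numerous group. The overlapping group held 2097 regions, or 14.3% of the list (Wilson 95% interval 13.8 to 14.9). The near group held 3442 regions, or 23.5% (22.9 to 24.2). The far group held 9088 regions, or 62.1% (61.3 to 62.9), with a median of 19.9 kb to the nearest HNF6 midpoint. These intervals, and those below, cover counting error only and treat regions as independent. Read depth is unknown from the lists. The division depends on how many HNF6 regions are listed: against only the strongest HNF6 regions, as many as there are NKX6.1 regions, 7.73% overlapped and 84.9% were far. It also depends on the distance chosen: the near share was 12.6% at 2 kb and 37.3% at 10 kb, where the far share was 73.0% and 48.3%.

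NKX6.1 scores set the overlapping group apart from the others, while near and far regions resembled each other. The authors' peak score, which has no stated unit and was used only within its list, had a median of 72 in overlapping regions (quartiles 42 and 134, range 13 to 1022). The median was 54 in near regions (34 and 85, range 13 to 903) and 51 in far regions (34 and 81, range 13 to 1398). The binomial intervals of the medians were 68 to 77 for overlapping, 51 to 55 for near and 50 to 54 for far. The overlapping interval thus lay above the other intervals, which met, and the score ranges of all groups overlapped widely. The strongest region of the whole list was a far region.

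The share of overlapping regions rose with NKX6.1 score, slowly over the lower deciles and more steeply above decile 7. It was 9.71% (8.29 to 11.3) in the lowest score decile and 12.3% (10.7 to 14.1) in decile 7. It then rose to 17.02% (15.2 to 19.03) in decile 8, 22.01% (19.96 to 24.2) in decile 9 and 27.2% (24.9 to 29.5) in the highest. The share of near regions stayed between 20.4% and 25.4% in all 10 deciles and showed no such rise. Far regions made up 67.4% (65.0 to 69.8) of the lowest decile and 50.4% (47.9 to 53.0) of the highest. Among the 100 strongest NKX6.1 regions, 40 were overlapping, 19 were near and 41 were far. Among the 1000 strongest, 292 were overlapping, 215 were near and 493 were far, so the near-equal division held for the top 100 and not further down.

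**Figure D1:**
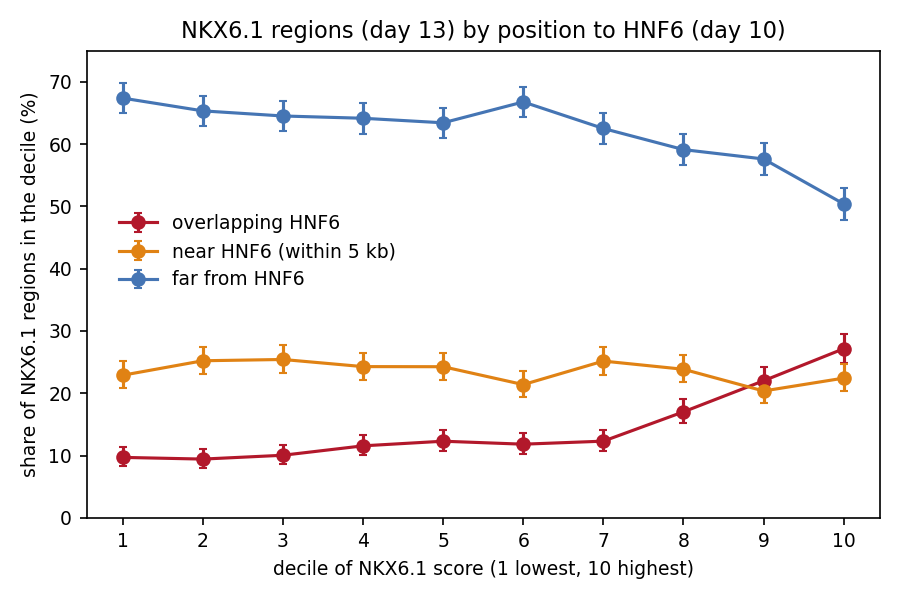
Share (%) of NKX6.1 regions in each decile of NKX6.1 score that overlap HNF6, lie near it or lie far from it; bars are Wilson 95% intervals. The overlapping share rises from 9.71% in the lowest decile to 27.2% in the highest, mostly above decile 7, while the near share shows no trend.

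Overlapping regions were also wider. Their median width was 116 bp (quartiles 93 and 150, range 76 to 596), against 99 bp in near regions (83 and 123, range 76 to 354). Far regions had a median of 97 bp (82 and 119, range 76 to 838). The smallest width in the list, 76 bp, was shared by 1727 regions, which were 6.29% (5.33 to 7.42) of the overlapping, 12.2% (11.2 to 13.4) of the near and 12.9% (12.2 to 13.6) of the far group. Regions listed in several rows at the same coordinates made up 3.10% (2.44 to 3.93) of the overlapping group. They made up 0.843% (0.587 to 1.21) of the near and 0.715% (0.562 to 0.911) of the far group.

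Score and width move together in a peak list, and a wider region overlaps another more easily, so each was read at a fixed level of the other. In the lowest of 4 equal classes of NKX6.1 score the median width was 95 bp in overlapping, 90 bp in near and 89 bp in far regions. In the highest it was 145, 128 and 125 bp. At like score, overlapping regions were thus wider, and the same held in both middle score classes. Reading at like score does not remove the easier overlap of wider regions. With midpoints within 200 bp in place of overlap, the ratio of median widths, overlapping over far, was 1.196, as under the 1 bp rule. A higher score at like width was not seen at all widths. In the narrowest of 4 width classes the median score was 41 in overlapping and 41 in far regions, and in the widest it was 133 against 98. The higher score of overlapping regions was therefore seen among wide regions and not among the narrowest.

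**Figure D2:**
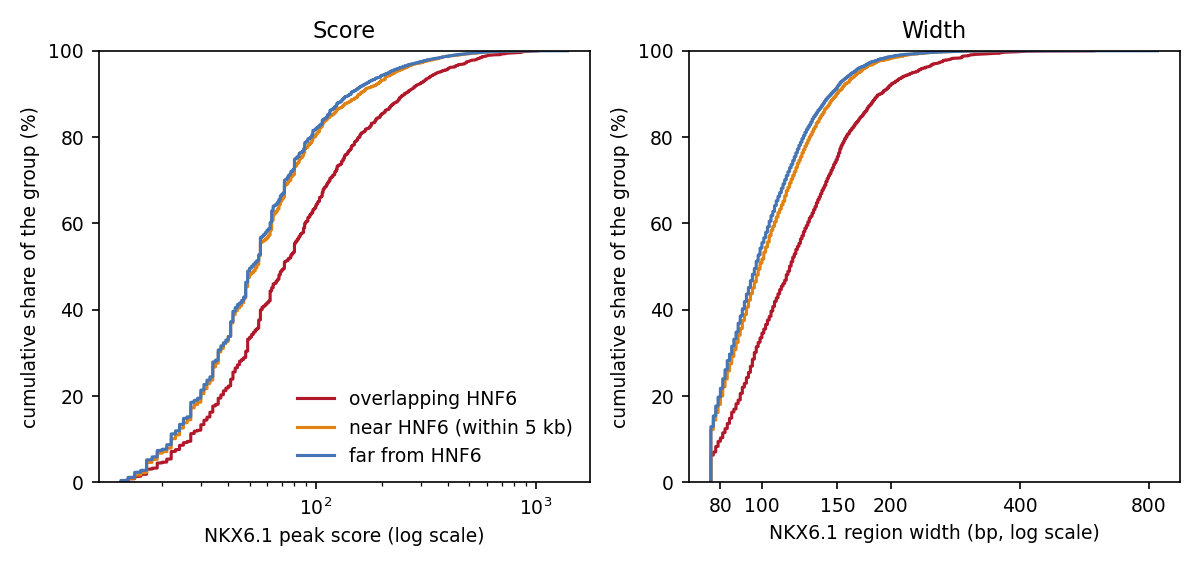
Cumulative share (%) of the 2097 overlapping, 3442 near and 9088 far NKX6.1 regions by peak score (left, log scale) and by width in bp (right, log scale). The near and far curves run almost together, with medians of 54 and 51 for score, and the overlapping curve lies to their right, with a median of 72.

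The 2097 overlapping NKX6.1 regions fell on 2076 HNF6 regions, and 1551 of them, or 74.0% (72.0 to 75.8), lay wholly inside an HNF6 region. The midpoints of the 2099 pairs were a median of 55 bp apart (quartiles 23 and 118), and 47.8% lay within 50 bp. The median HNF6 region in a pair was 346 bp wide. Only 23 HNF6 regions held 2 NKX6.1 regions, and none held more. Across pairs, the NKX6.1 and HNF6 scores had a Spearman's rho of 0.0874, given as a description since the pairs are not independent. Of the pairs, 180 (8.58%) were in the highest score decile of both lists. In comparison, 397 of the 2097 overlapping NKX6.1 regions were in the highest NKX6.1 decile. Of the overlapped HNF6 regions, 34.9% were in the highest HNF6 decile. The count of pairs expected from these shares alone was not computed. The order of the scores at shared sites thus differed between the lists, where factor, antibody, day and library cannot be told apart.

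From the HNF6 list, 2076 regions, or 3.20% of all, were overlapped by NKX6.1, another 5032 had an NKX6.1 midpoint within 5 kb without touching it, and 57811 had none. The HNF6 score had a median of 213 at overlapped regions (interval 196 to 227, quartiles 84 and 612, range 13 to 4237). It was 80 (78 to 84) at regions with NKX6.1 nearby and 78 (78 to 78) at the rest. Of the overlapped regions, 34.9% (32.9 to 37.0) were in the highest HNF6 score decile, against 9.36% (8.59 to 10.2) of those with NKX6.1 nearby. Of those without NKX6.1, 9.17% (8.94 to 9.41) were in it. Median widths were 346 bp (338 to 352), 269 bp (266 to 271) and 258 bp (257 to 259), but a wider HNF6 region meets the 1 bp rule more easily, so its width is not independent of the grouping. How far width accounts for the HNF6 scores was not tested. Listed GATA6 regions overlapped 9.66% of all HNF6 regions, but 35.9% (33.9 to 38.0) of those that NKX6.1 overlapped. The share was 10.6% (9.77 to 11.5) with NKX6.1 nearby and 8.63% (8.41 to 8.87) without. In score, HNF6 regions with NKX6.1 nearby lay close to the rest, while in width and GATA6 they lay slightly above it.

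**Figure D3:**
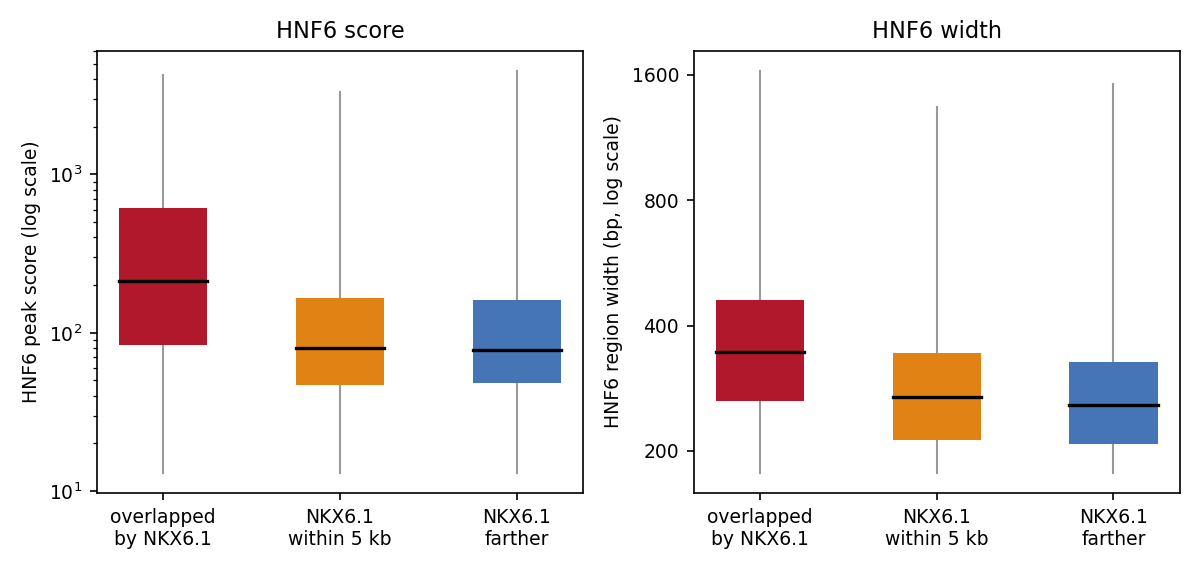
HNF6 peak score (left, log scale) and HNF6 region width in bp (right, log scale) for regions overlapped by NKX6.1, with NKX6.1 within 5 kb, or farther; boxes span the quartiles, black lines are medians and grey lines the full range. Medians are 213, 80 and 78 for score and 346, 269 and 258 bp for width.

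About 1 in 3 overlapping regions also carried GATA6 of day 10. Of all NKX6.1 regions, 5.18% overlapped a listed GATA6 region. The share was 712 of 2097 overlapping regions, or 34.0% (31.96 to 36.01), and 45 of 3442 near regions, or 1.31% (0.979 to 1.74). It was 0 of 9088 far regions. The GATA6 list used here is partial, and all its regions overlap HNF6 of day 10. The low counts outside the overlapping group therefore follow from that list and are no finding. Within the overlapping group the share was 33.0% (28.3 to 38.0) in the lowest of the 4 score classes and 38.4% (35.2 to 41.7) in the highest. In the middle classes it was 31.3% (27.1 to 35.9) and 29.0% (25.1 to 33.3), so it did not rise steadily with score. The 5 NKX6.1 regions that met an HNF6 region of day 5 were all in the overlapping group.

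Near regions differed from far ones in clustering, although not in score. Of all NKX6.1 regions, 14.9% had another NKX6.1 midpoint within 10 kb. The share was 19.1% (17.9 to 20.5) in near regions, 18.1% (16.5 to 19.8) in overlapping regions and 12.6% (11.9 to 13.3) in far regions. The median distance to the nearest other NKX6.1 region was 44.2 kb in the near, 47.2 kb in the overlapping and 58.5 kb in the far group. Overlapping and near regions were thus alike in this measure within their intervals, and both lay above far regions.

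Far regions lay where HNF6 was also sparser beyond the distance that defined the groups. Between 5 and 50 kb from the NKX6.1 midpoint, overlapping regions had a median of 3 HNF6 regions, near regions 3 and far regions 2. No HNF6 region lay in that span for 11.4% of overlapping, 10.3% of near and 16.4% of far regions. Clustering was therefore read at like HNF6 density. With 1 to 2 HNF6 regions in the span, a neighbour was found for 16.1% (14.2 to 18.3) of near and 11.3% (10.4 to 12.4) of far regions. With 6 or more it was found for 28.7% (24.9 to 32.7) of near, 26.0% (21.2 to 31.4) of overlapping and 15.3% (12.9 to 18.04) of far regions. With none, the intervals met, at 14.6% (11.3 to 18.7) for near and 10.2% (8.75 to 11.8) for far regions.

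**Figure D4:**
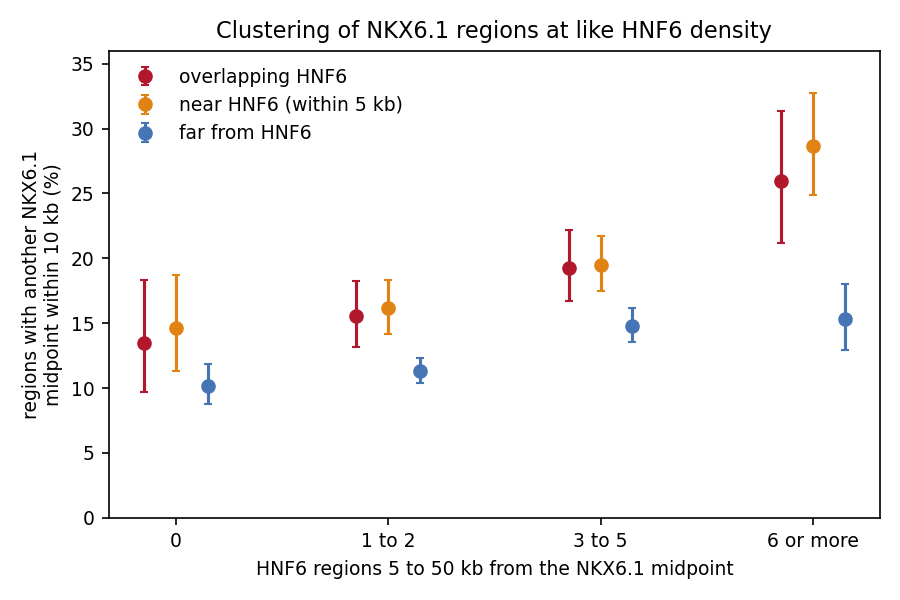
Share (%) of NKX6.1 regions with another NKX6.1 midpoint within 10 kb, by the number of HNF6 regions 5 to 50 kb away; bars are Wilson 95% intervals. Near and overlapping regions lie above far regions in each class, widest apart with 6 or more HNF6 regions (28.7% and 26.0% against 15.3%), and with 0 the intervals meet.

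Chains of NKX6.1 regions at most 10 kb apart numbered 1035, of which 939 held 2 regions, 84 held 3 and 12 held 4 or more. Chains of far regions alone numbered 447, chains of near regions alone 149 and chains of overlapping regions alone 41, and 398 were mixed. Where an overlapping region had a neighbour, the nearest was a near region in 52.6% (47.6 to 57.6) of cases and another overlapping region in 26.8% (22.6 to 31.5). Since neighbours share a locus, a share of near regions above that of the whole list follows in part from the rule. The longest chain, with 6 far regions and no HNF6 region, lay at chr15:20514026-20522744 on hg19. A chain of 4 far regions at chr16:32343219-32344945 also held no HNF6 region. The highest NKX6.1 scores in these chains were 118 and 135. Whether reads can be placed uniquely in these stretches was not examined. A chain of 5 near regions lay at chr1:87792583-87814215 around 3 HNF6 regions, with a highest NKX6.1 score of 385. A chain of 2 near and 2 far regions at chr9:128649586-128665082 lay inside the placed span of PBX3, which encodes a homeodomain cofactor of developmental transcription factors.

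Within the near group, the bins closest to HNF6 held the most regions. The group is itself defined by this distance, and the shares expected for regions placed without regard to HNF6 were not computed. Of the 3442 near regions, 1064 (30.9%) had the HNF6 midpoint within 1 kb, 783 (22.7%) at 1 to 2 kb and 452 (13.1%) at 4 to 5 kb. Their median NKX6.1 score was 55 within 1 kb and 51.5 at 4 to 5 kb, so closeness without contact went with little difference in score. The nearest HNF6 regions of the near group had a median HNF6 score of 84 (quartiles 49 and 178). At the borders of the rule, the 54 regions that overlapped by at most 20 bp had a median score of 61.5, and the 66 that missed by at most 20 bp had 56. The 223 near regions at 4.5 to 5 kb had a median score of 49, and the 230 far regions at 5 to 5.5 kb had 56.

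The 5 strongest regions of each group, on chromosomes 1 to 22 and X, are given with their HNF6 neighbours. The strongest overlapping region, chr5:67424800-67425156 (357 bp, NKX6.1 score 1022), lay on an HNF6 region with a score of only 51, at percentile 29.3 of its list. The third, chr9:110309285-110309561 (score 927), lay 8 bp from the midpoint of the HNF6 region with a score of 4237, near the top of its list. The region chr2:117086874-117087114 (score 977) met an HNF6 region of score 1886, chr11:88030686-88030998 (914) one of score 143, and chr3:50248195-50248371 (883) one of score 2868. All 5 also overlapped a listed GATA6 region, as did 34.0% of all overlapping regions. They were 177 to 357 bp wide, and in the widest of 4 width classes 44.0% of overlapping regions met GATA6. Whether strong sites differ in GATA6 at like width was not tested. The HNF6 partners of the strongest NKX6.1 sites thus ranged from weak to among the strongest of the list.

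Of the 5 strongest near regions, 1 overlapped listed GATA6, as did 1.31% of all near regions. The strongest was chr7:156361561-156361725 (score 903), 478.5 bp from the midpoint of an HNF6 region with a score of 726. It was followed by chr7:8574333-8574505 (893), which overlapped GATA6 and lay 267 bp from an HNF6 midpoint, and by chr8:71860928-71861092 (792), at 293 bp. Those at chr2:115726442-115726604 (738) and chr18:30761137-30761322 (730) lay 1798 and 3203.5 bp from HNF6. The strongest far regions lay between 5770.5 and 61380 bp from HNF6. The region chr5:5362647-5362841 (score 1398) lay 21954 bp from the nearest HNF6 midpoint. The region chr7:17151296-17151450 (1032) lay 31306 bp away, chr18:67739942-67740143 (944) 61380 bp, chr4:174851770-174851962 (866) 5770.5 bp and chr10:73426583-73426786 (841) 8524 bp. The far region on chromosome 18 had no HNF6 region within 50 kb.

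The shares of the groups varied between chromosomes, and whether beyond counting error was not tested. The overlapping share ran from 11.5% (9.76 to 13.5) on chromosome 4 to 19.2% (15.1 to 24.2) on chromosome 16, whose intervals did not meet. These were the lowest and highest, picked after ranking, so their intervals do not test a difference. On every other chromosome the interval held the 14.3% of the whole list. The near share ran from 14.3% on chromosome 16 to 29.7% on chromosome 18. The far share ran from 56.1% (51.4 to 60.7) on chromosome 18 to 71.1% (62.7 to 78.2) on chromosome X. Chromosome X held 128 NKX6.1 regions, or 9.63 for each 100 HNF6 regions, against 16.6 to 25.8 on the autosomes.

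Genes were read from hg19 start sites of 195 listed developmental and pancreatic genes. These positions were written by hand from general knowledge, not read from an hg19 annotation, so every gene statement below is provisional and depends on them. A gene was counted where an NKX6.1 midpoint lay within 100 kb of its start. Regions farther from the start, even inside a long gene, were not counted. Gene counts and rankings below hold for that window unless another is named. An overlapping region was found at 49 of the 195 genes (25.1%), a near region at 57 (29.2%) and a far region at 94 (48.2%). As background, 12.2% of consecutive 200 kb windows of the genome held an overlapping region, 18.3% a near region and 41.9% a far region. Any NKX6.1 region was found at 72.3% of the genes and in 55.0% of windows, and HNF6 at 96.4% and in 87.2%. Within 50 kb the gene shares were 17.4% for overlapping, 17.4% for near and 28.2% for far regions, against 6.47%, 9.90% and 24.5% of 100 kb windows. Any NKX6.1 region was then found at 51.3% against 35.2%, and HNF6 at 91.3% against 75.2%. Those windows include stretches with no gene, so the higher shares at the listed genes were not tested against other genes. Some genes that lie close together share their regions.

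The progenitor factors, which set up and maintain the pancreatic progenitor state, had overlapping regions at 11 of 26 genes, or 42.3% (25.5 to 61.1). The share was 25.1% over all 195 listed genes, close to the lower end of that interval, and 12.2% over windows. These factors had near regions at 9 (34.6%) and far regions at 13 (50%), against 29.2% and 48.2% over all listed genes. All 26 had an HNF6 region of day 10, as did 96.4% of all listed genes. Among the 11 genes were NKX6-1, SOX9, PTF1A, HNF4G, FOXA1, ONECUT1, ONECUT3, GATA4, PROX1 and RBPJL. At 6 genes no NKX6.1 region was listed within 100 kb, among them HHEX, an early foregut homeobox gene with 10 HNF6 regions, and HNF4A and NKX2-2, each with 3.

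GATA4 and SOX9 had the most overlapping regions, with 3 each. GATA4, a zinc finger factor of endoderm and heart, had overlapping regions at chr8:11483623-11483799 (NKX6.1 score 245), chr8:11576241-11576440 (273) and chr8:11601755-11601850 (72). The region of score 273 lay inside the gene at an HNF6 region of score 2060 and also overlapped GATA6, as did that of score 72. GATA4 had 2 far regions as well (scores 271 and 166). SOX9, which maintains progenitors and later duct cells, had overlapping regions upstream at chr17:70051654-70051752 (score 45) and chr17:70067620-70067787 (score 282), both with GATA6, and 1 downstream at chr17:70150151-70150226 (score 36). It had 1 near region (score 81) and no far region.

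The gene of HNF6 itself held a strong overlapping region. Inside ONECUT1, chr15:53072483-53072936 had an NKX6.1 score of 476, at percentile 98.9 of the list, on an HNF6 region of score 805. A near region downstream, chr15:53001463-53001543, had a score of 86. ONECUT3, a paralogue of ONECUT1, had 2 overlapping regions (scores 144 and 83) and 2 near ones (62 and 249), and ONECUT2 had 1 far region (28). PTF1A, which directs acinar fate, had an overlapping region of score 39 at chr10:23487268-23487343 and a far region of score 317 at chr10:23542859-23543081. FOXA1, a pioneer factor of endoderm, had 1 overlapping region (score 81) on an HNF6 region of score 1845.

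The NKX6-1 gene had 6 NKX6.1 regions within 100 kb of its start, as many as MEIS2 and more than any other placed gene in that window. Regions inside a gene but farther from its start, as in the chain inside PBX3, were not counted. One was overlapping, chr4:85354777-85355077 (score 133), with GATA6 and on an HNF6 region of score 360. The strongest was a far region at chr4:85395402-85395528 (score 247), downstream of the gene, and another far region, chr4:85421802-85421889 (score 60), lay upstream. The 3 near regions had scores of 56, 121 and 23. MEIS2, a TALE homeodomain cofactor, had 2 overlapping regions (scores 140 and 40), 3 near (26, 24 and 92) and 1 far (24).

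At PDX1, 4 of the 5 NKX6.1 regions were near HNF6 and none overlapped it. PDX1, the homeodomain factor without which no pancreas forms, had 17 HNF6 regions within 100 kb, of which 0 were overlapped by NKX6.1. With 3.20% of all HNF6 regions overlapped, 0 of 17 is near the share of the whole list. Its 5 NKX6.1 regions all lay upstream, and 4 were near, where 23.5% of the whole list were near. The one closest to the start, chr13:28491385-28491487 (score 70), had as nearest HNF6 region one of score 2118. The other near regions had scores of 87, 56 and 36, and the far region, chr13:28425805-28425966, had a score of 133. RFX6, a factor of endocrine development, had 4 near regions (scores 76, 63, 54 and 155) among 15 HNF6 regions. Of these HNF6 regions 0 were overlapped, again near the share of the whole list. The 5 kb rule is met more easily where HNF6 regions are many. How far HNF6 density accounts for the near counts at PDX1 and RFX6 was not tested.

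At MNX1 and TBX3 the regions were all far. MNX1, a homeodomain factor of the early pancreatic bud, had 4 far regions with scores of 43, 88, 120 and 42, and 8 HNF6 regions. TBX3, a T-box repressor active in liver buds, had 4 far regions, with scores of 276 and 519 for the stronger pair and 19 and 15 for the weaker. TCF7L2, a WNT effector and diabetes risk gene, had 3 far regions within 100 kb of its start (scores 113, 25 and 128). GATA6 itself had 1 NKX6.1 region, a far one inside the gene (score 134), beside 17 HNF6 regions.

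**Figure D5:**
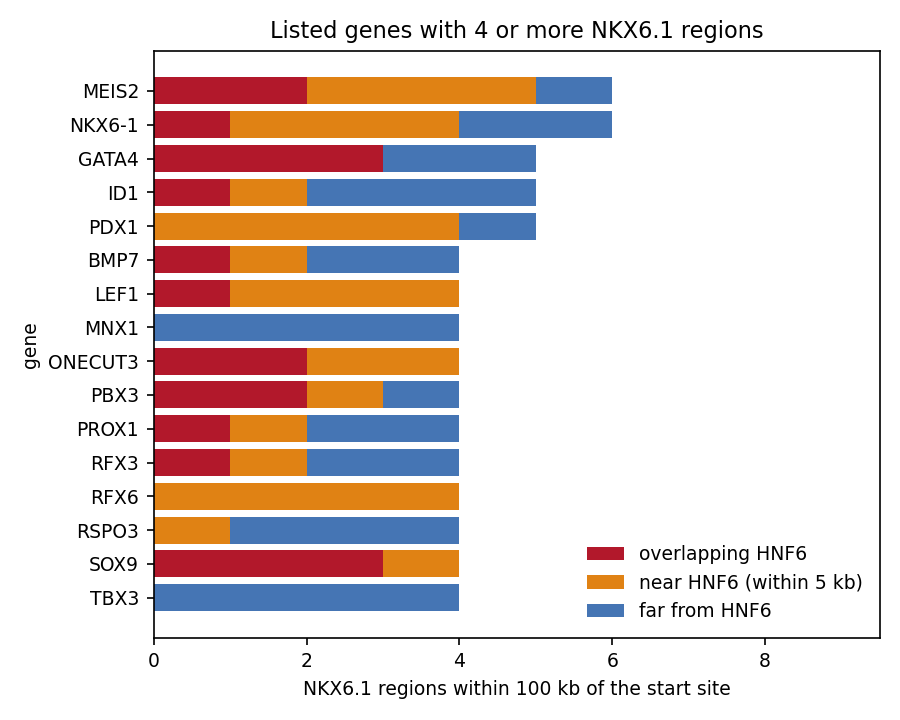
Number of NKX6.1 regions within 100 kb of the hand-placed start site that overlap HNF6, lie near it or lie far from it, for the 16 listed genes with 4 or more. SOX9 and GATA4 have 3 overlapping regions each, PDX1 and RFX6 have 4 near regions and no overlapping one, and MNX1 and TBX3 have 4 far regions only.

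Endocrine factors had overlapping regions at 5 of 18 genes (27.8%), near regions at 5 (27.8%) and far regions at 8 (44.4%). These were about the shares over all 195 listed genes, 25.1%, 29.2% and 48.2%. RFX3, which is needed for endocrine differentiation, had an overlapping region of score 488 inside the gene, chr9:3523910-3524118, on an HNF6 region of score 640. LMX1B had overlapping regions with scores of 287 and 76, IRX2 had 2 with scores of 202 and 101, and NEUROD1 had 1 with a score of 42. PAX4 was the remaining gene. NEUROG3, which starts endocrine differentiation, had 1 far region (score 406). Islet hormone and secretion genes had an overlapping region at 1 of 19 genes (5.26%), GLP1R (score 122, with GATA6), near regions at 7 (36.8%) and far regions at 7 (36.8%). INS, the insulin gene, had 2 far regions and GCG, the glucagon gene, had 1 near and 2 far regions.

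Signalling lists are given by their counts, with no test between them. Over all 195 listed genes, 25.1% had an overlapping and 48.2% a far region, and over windows 12.2% and 41.9%. Of the TEAD and YAP genes, which transmit tissue mechanics and growth, 4 of 10 had an overlapping region: YAP1 (scores 52 and 43), WWTR1, LATS2 and CCN1. Of the NOTCH genes, 3 of 15 had one, which were DLL1 (score 185, with GATA6), HEY1 (score 147, with GATA6) and MAML2. NOTCH1, NOTCH2, JAG1 and HEY2 had no NKX6.1 region within 100 kb of the start, and regions farther away were not counted. FGF and BMP genes had overlapping regions at 4 of 23 genes (17.4%) and far regions at 14 of 23 (60.9%). The latter included ID2, a BMP target, with a far region of score 432, and SMAD6, an inhibitor of BMP signalling, with one of score 355. FGFR3 had a far region of score 709, chr4:1876038-1876205. Retinoic acid genes had overlapping regions at 2 of 10, RARG and ALDH1A2, and far regions at 7 of 10.

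Among 15 WNT genes, 4 (26.7%) had an overlapping region, about the 25.1% over all listed genes. The receptor gene FZD8 had the strongest of any listed gene, chr10:35926010-35926211, with an NKX6.1 score of 771 (percentile 99.8), on an HNF6 region of score 121 and with GATA6. LEF1, a nuclear WNT effector, had 1 overlapping region (score 81) and 3 near ones (28, 85 and 46). LGR5, a stem cell receptor, had a weak overlapping region (score 37), chr12:71832915-71832999, within 1 kb of its start. NKX6.1 regions so close to a start were listed at 3 of 195 genes, among them PDGFRA (overlapping, score 45). A background share for windows of that size was not computed.

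Lists for other cell types are set beside the shares over all 195 genes, 25.1% with an overlapping and 48.2% with a far region, and over windows, 12.2% and 41.9%. Of the TALE cofactors, 2 of 6 genes had an overlapping region, MEIS2 and PBX3. Overlapping regions were found at 3 of 11 liver genes (TTR, SERPINA1 and FGB) and at 4 of 14 genes of other gut segments. ALB and AFP had no NKX6.1 region within 100 kb of the start. Of 12 ventral neural tube genes, a tissue where NKX6.1 also acts, 4 had an overlapping region (DBX2, LHX3, LHX4 and FOXP1) and 6 a far one. Of 12 mesenchyme genes 1 had an overlapping region, PDGFRA, and 7 a far one. Of 6 pluripotency genes 1 had an overlapping region, NANOG, and 4 a far one. With 6 to 26 genes a list, the intervals of these shares are wide and no list was tested against another.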

How the data were processed

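The authors deposited 1 peak list per library, with a position, a name and a score whose unit is not stated. Bowtie2 2.3.4.1, MACS2 2.1.1.20160309 and hg19 are named without roles or settings, per the submitters' processing notes. Rows with the same coordinates were merged and the highest score kept (14793 to 14627 for NKX6.1, 66373 to 64919 for HNF6). The smallest width was 76 bp for NKX6.1 and 177 bp for HNF6. The sources used here do not say whether calling settings differed. The 3 inputs were not analysed here. Positions are 1-based.

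Overlaps and distances used numpy 2.4.6 and pandas 2.3.3 under Python 3.11.15, in code tested on simulated data. Shares have Wilson 95% intervals (statsmodels 0.14.6) and medians binomial order-statistic intervals (scipy 1.17.1).

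The plan was to run gene results only with an hg19 gene table, and to assign regions to the nearest start site. No such table was used here, and the gene counts depart from that plan. For 200 of the 238 listed genes, those whose position could be recalled, hg19 spans were written from general knowledge. They were checked only against RefSeq spans on GRCh38: both ends had to differ by shifts equal within 20 kb. That tolerance was set after the shifts and the counts for all 200 genes had been seen. It removed 5, of which LIN28B failed by a small margin, and kept 195. Some listed genes are counted but not reported by name here. Equal shifts do not establish a position, and no coordinate was converted. No hg19 sequence was used, so motifs were not searched and no sequence is printed.

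Named regions were the 5 strongest of each group on chromosomes 1 to 22 and X. The rule for named genes, those with most regions by nearest start, could be applied only by window over placed genes. Further genes were named after their values were seen. Score deciles, HNF6 density classes, chains, distance bins, borders of the groups, pairs, chromosomes, genome windows and runs without GATA6 were chosen after seeing the data. The groups and gene lists were chosen with earlier results of these data known.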

Additional observations from a re-analysis of the deposited data

How the results depend on the processing

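No paired analysis was possible because each factor had 1 library. All alternatives below treat regions as independent. Of 74 alternative values, 38 stayed within the interval of the reported value, with no change of direction where the value is a ratio. Another 34 left that interval, and the other 2 changed direction while staying within it. Some of the 38 are no check: a near distance of 2 or 10 kb cannot alter the overlapping share. The other overlap rules likewise left the far share at 62.1%. The overlapping share was 13.1% with overlap of 50% of the shorter region, 13.6% with midpoints within 200 bp and 7.73% against only as many of the strongest HNF6 regions as NKX6.1 regions. The near share under these settings was 24.8%, 24.2% and 7.40%. It was 12.6% with a near distance of 2 kb, 37.3% with 10 kb and 13.98% above the median score of each list. The far share was 84.9% against the strongest HNF6 regions, 73.0% with 2 kb, 48.3% with 10 kb and 72.2% above the median scores.

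The ratio of median scores, overlapping over far, was 1.41 and was 1, 1.06 and 1.18 in the lower 3 of 4 width classes. Near over far, it was 1.06, and turned to 0.976 and 0.980 in the 2 narrowest classes. The cause was not tested. The ratio of median widths, overlapping over far, was 1.196, and 1.07, 1.09, 1.12 and 1.16 from the lowest to the highest score class, and 1.13 without regions that overlap GATA6.

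The ratio of neighbour shares, overlapping over far, was 1.44, and 1.72 with neighbours within 5 kb and 1.70 with 6 or more HNF6 regions 5 to 50 kb away. Near over far, it was 1.52, and 1.92 within 5 kb, 1.34 within 20 kb, 1.83 above the median scores, 1.32 with 3 to 5 HNF6 regions and 1.87 with 6 or more. The settings without GATA6 and by HNF6 density were chosen after seeing the data. GATA6 was found at 31.9% of overlapping regions with 50% of the shorter region covered. Within 50 kb of the start, 17.4% of the listed genes had an overlapping region, 17.4% a near and 28.2% a far region, where 100 kb windows of the genome gave 6.47%, 9.90% and 24.5%. The gene windows, positions and this smaller window were also chosen after seeing the data. Shares near start sites of all genes, distances to them and motif letters were planned and not run.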
